A study of Mus musculus and Homo sapiens with 27 samples.

Results

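The BCL2 family decides whether a cell keeps its mitochondria intact or releases the proteins that start apoptosis. Its pro-survival members (BCL2, BCL-XL, MCL-1 and A1) bind and hold back the effectors BAX and BAK, and its BH3-only members (such as BIM, BID and NOXA) bind the pro-survival members or activate the effectors. In B cells the balance shifts with activation: A1 is a known NF-kB target, MCL-1 is a short-lived protein that mature B cells and plasma cells need, and BIM removes B cells that lose survival signals. The genes described here were chosen by name: Bcl2, Mcl1, Bcl2a1d (one of the mouse copies of the A1 gene), Bid and Bcl2l11 (BIM) on the mouse array, and BCL2, BCL2L1 (BCL-XL), MCL1, BCL2A1 (A1) and PMAIP1 (NOXA) on the human array. They are 5 of 331 named mouse genes, on 9 of 559 features with 1 gene symbol, and 5 of 4604 named human genes, on 24 of 10169 such features. A feature is 1 spotted cDNA.

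The lymphochip carries spotted cDNAs and is hybridised with RNA of 2 dyes, and 27 such arrays were used. The mouse samples were B cells from the spleens of adult Balb-c mice, grown with LPS, a bacterial product that makes B cells divide and turn into antibody-secreting cells. Irf4, a transcription factor of B-cell activation and plasma cell formation, was missing altogether (Irf4-/-, KO) or in 1 of its copies (Irf4+/-, Het), so the control was itself heterozygous and no wild-type cells were compared. KO cells had 3 arrays at each of 0, 24, 48 and 96 h. Het cells had 3 unstimulated arrays, 2 each at 24 and 48 h, and 4 at 96 h. The human samples were OCI-Ly7, a germinal-centre-type diffuse large B-cell lymphoma line, carrying an IRF4 vector and hybridised against OCI-Ly7 with an empty vector (the series text says non-transduced cells). Day 3 has 2 arrays, and days 2 and 5 have 1 each. The series text calls the repeats biological and does not say how many mice or cultures stand behind them, so a p-value measures the spread between these arrays.

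A mouse level is the log2 ratio of the sample to an RNA pool made from cell lines of the B, T and monocyte lineages, minus the median of its array, so that 0 is the level of the typical feature. A human value is the log2 ratio of the IRF4 vector to the empty vector, minus the median of its array. The log base of 2 was assumed, and the direction of both ratios was assumed from the dyes in the labels. On the mouse arrays the B-cell gene Cd79b lay above 0 on 23 of 23. No mouse feature is named Irf4. On the human arrays the mean of the 4 IRF4 features was -0.03 ± 0.47 (SD, n = 4), with feature 24729_1 between 0.60 and 0.86 and the others above 0 on 1 of 4 arrays each. The 8 plasma cell markers on the human arrays had a median of 1.95, with 6 above 0. The human direction stays an assumption, and every human sign below would turn with it. Genes were averaged over their features, tested with limma and adjusted over all genes of the platform by Benjamini and Hochberg, with a threshold of 0.05 on the adjusted p.

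Certain arrays need naming before the results. The titles say KO and the channel fields say Het for 3 arrays, replicate 3 of the KO group at 24 h and 2 of its replicates (1 and 3) at 48 h, and the titles were followed. The 5 arrays of the lowest range of the authors' database numbers (replicate 1 of each genotype at 0 h and at 24 h, with Het at 0 h replicate 2) had a wide spread, with a standard deviation of 1.35 to 3.10 over all features, against 0.98 to 1.79 on the 13 arrays of the highest range. What these ranges mark is not stated in the labels. All arrays at 96 h (3 KO and 4 Het) were in the highest range, as was 1 array of each genotype at 0 h. Differences between 0 h and 96 h thus mix LPS time with database range. Up to 17.4% of the features of an array in the lowest range lay more than 5 log2 units below the median. Of the 207 feature values of the mouse genes described here, 5 lay that low, 3 in Bcl2 and 1 each in Bcl2a1d and Bid. Few cell type markers were among the named genes: 1 of 8 B-cell markers (Cd79b), 2 of 15 T and NK cell markers and 2 of 12 myeloid markers were measured, beside 7 of 8 plasma cell markers. The mean of the T and NK markers ran from -4.51 to -0.09 in KO arrays and from -2.26 to -0.04 in Het arrays, and that of the myeloid markers from 0.50 to 1.68 in KO arrays and from -3.41 to 0.88 in Het arrays. Their part in the results was not tested. In RNA of whole cultures, fewer cells that express a gene and less RNA of it per cell cannot be told apart.

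The A1 gene has near-identical copies on mouse chromosome 9, which may bear on every value of Bcl2a1d. RefSeq (GRCm38.p6) places Bcl2a1d at chr9:88723288-88731850, Bcl2a1a at chr9:88956920-88962416 and Bcl2a1b at chr9:89199273-89207838, with the short Bcl2a1c further along at chr9:114330135-114330578. The 250 bases before the annotated start are shown for Bcl2a1d, Bcl2a1a and Bcl2a1b. These windows show how alike the shown copies are before their starts and that one stretch of sequence lies before each of them. They are read on the strand of each gene, and capitals mark the letters TGANTCA.
Bcl2a1d, minus strand, chr9:88731851-88732100: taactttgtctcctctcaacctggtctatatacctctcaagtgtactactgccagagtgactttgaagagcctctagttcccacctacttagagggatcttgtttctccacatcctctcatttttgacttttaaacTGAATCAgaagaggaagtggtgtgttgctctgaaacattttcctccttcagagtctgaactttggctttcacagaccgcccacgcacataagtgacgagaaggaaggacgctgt
Bcl2a1a, plus strand, chr9:88956670-88956919: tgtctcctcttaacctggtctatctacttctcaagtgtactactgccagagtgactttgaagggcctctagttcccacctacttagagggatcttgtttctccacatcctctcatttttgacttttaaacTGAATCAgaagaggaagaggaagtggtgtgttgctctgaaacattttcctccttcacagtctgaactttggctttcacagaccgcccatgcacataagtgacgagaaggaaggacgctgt
Bcl2a1b, plus strand, chr9:89199023-89199272: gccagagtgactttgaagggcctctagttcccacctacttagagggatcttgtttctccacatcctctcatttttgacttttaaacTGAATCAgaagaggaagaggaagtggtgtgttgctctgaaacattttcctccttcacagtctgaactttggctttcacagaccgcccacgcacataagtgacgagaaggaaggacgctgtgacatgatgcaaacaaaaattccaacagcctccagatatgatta
In a local alignment, Bcl2a1d and Bcl2a1a were identical at 238 of 244 aligned bases (97.54%). Bcl2a1d and Bcl2a1b were identical at 198 of 200, since the annotated start of Bcl2a1b lies further downstream. Each of these alignments also held 6 gap bases, which are not in the counts. The marked site begins 114 bases before the start in Bcl2a1d, 120 in Bcl2a1a and 164 in Bcl2a1b. TGANTCA, a loose form of an AP-1 site, was not in the window of Bcl2a1c and occurred in 6.75% of the 32851 windows of this length in the table on either strand. GAAA, any 2 bases and GAAA (found in 2.98% of windows) and GGAA, any 2 bases and GAAA (2.3%), which resemble sites bound by IRF proteins, were in none of the windows of the 5 mouse genes and of the other A1 copies. GGG, any 5 bases and CC, a loose form of an NF-kB site, was in the windows of Bcl2, Mcl1, Bid and Bcl2l11 and not of Bcl2a1d, and it occurred in 45.8% of all windows. The window of Mcl1 (chr3:95658471-95658720) and most of that of Bid (chr6:120916825-120917074) lie inside the gene spans given below. So does a further window of Bcl2l11 (chr2:128127325-128127574). Both strands were searched, matches of different motifs could overlap, and a match of letters is no measured site.

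Bcl2a1d was higher after LPS in both genotypes, on every array. At 0 h its level was 0.26, 0.32 and -0.02 on the KO arrays. At 24 h it was 4.19, 2.60 and 2.79, at 48 h 2.93, 2.42 and 2.76, and at 96 h 1.94, 2.06 and 2.03. Every KO array after LPS lay above every KO array at 0 h, with the highest values at 24 h. In Het cells the level was -0.60, -3.88 and -0.10 at 0 h. It was 2.96 and 2.88 at 24 h, 2.24 and 1.69 at 48 h, and 0.97, 1.98, 1.66 and 2.08 at 96 h. The Het arrays did not overlap between 0 h and any LPS time, and their highest values too were at 24 h.

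Bcl2a1d rose in KO cells at 24 h, by 3.01 ± 0.67 (SE, limma adjusted p = 0.0249), which is 8.05-fold. It was the 1 gene of 331 that passed the test in the higher direction there, against a background of 0.302% of genes called higher (1.21% lower). At 48 h and 96 h KO cells lay 2.52 (adjusted p = 0.0657) and 1.82 (adjusted p = 0.158) above 0 h, without passing it. Bcl2a1d rose in Het cells at 24 h by 4.44 ± 0.75 (SE, adjusted p = 0.00116, 21.8-fold), at 48 h by 3.49 ± 0.75 (SE, adjusted p = 0.00695) and at 96 h by 3.20 ± 0.63 (SE, adjusted p = 0.00267). The share of genes called higher in Het was 10.6% at 24 h, 6.04% at 48 h and 7.85% at 96 h. Groups that do not overlap were common among all genes. Such genes made up 19.3% at 24 h, 22.4% at 48 h and 52.6% at 96 h in KO. In Het they made up 32.3% at 24 h, 33.2% at 48 h and 21.1% at 96 h, so the absence of overlap alone says little.

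The size of the Het response rests in part on 1 spot. Feature 111046_1 read -7.61 on Het at 0 h replicate 2, against 0.45 and 0.14 on the other Het arrays at 0 h. With values more than 5 below the array median taken as missing, a setting chosen after seeing the data, the Het rise was 3.20 at 24 h (adjusted p = 4.06e-05), 2.25 at 48 h and 1.95 at 96 h, all past the threshold. Without the lowest database range it was 2.98, 2.06 and 1.77, also past it. The Het calls were lost where only the 2 groups compared were fitted (adjusted p of 0.543, 0.638 and 0.124), and that at 48 h also without Het at 48 h replicate 1 (3.21, adjusted p = 0.160). The KO call at 24 h was lost without KO at 24 h replicate 1 (2.51, adjusted p = 0.171), without any of the 3 KO arrays at 0 h (adjusted p up to 0.0907), without the arrays of conflicting labels (3.21, adjusted p = 0.0888) and where only the 2 groups compared were fitted (adjusted p = 0.0641). Within the 3 database ranges, each with 1 KO array at either time, the KO difference at 24 h was 3.93, 2.29 and 2.81, while the KO differences at 48 and 96 h passed the test under 6 of 18 alternatives each.

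A feature named for both Bcl2a1b and Bcl2a1a, and so left out of the gene values, was higher at 24 h than at 0 h in both genotypes. Feature 105603_1 read 4.92, 3.35 and 2.41 in KO cells at 24 h, against 0.99, -0.21 and 0.23 at 0 h. In Het cells it read 2.88 and 2.84 at 24 h, against 0.68, 0.61 and -0.40 at 0 h. No array at 24 h overlapped one at 0 h in either genotype. Fitted feature by feature with limma, it rose by 3.22 ± 0.50 in KO cells (SE, adjusted p = 0.00091) and by 2.56 ± 0.56 in Het cells (SE, adjusted p = 0.00883) at 24 h, and by 2.08 ± 0.50 in KO cells at 48 h (SE, adjusted p = 0.0391). It did not pass in KO at 96 h (1.30, adjusted p = 0.115), nor in Het at 48 h (1.48, adjusted p = 0.117) and 96 h (1.08, adjusted p = 0.0874), times at which the Bcl2a1d gene value passed in Het. Its difference at 24 h was larger in KO than in Het, the other way round from the Bcl2a1d gene value, and neither contrast of the responses passed the test. The Bcl2a1d feature 104671_1 rose by 3.22 ± 0.57 in KO (SE, adjusted p = 0.00305) and by 3.74 ± 0.64 in Het (SE, adjusted p = 0.00195) at 24 h. The other Bcl2a1d feature, 111046_1, differed by 2.80 in KO at 24 h (adjusted p = 0.384) and by 4.36 in Het at 48 h (adjusted p = 0.0800) without passing, and it rose in Het at 24 h by 5.14 (adjusted p = 0.0285) and at 96 h by 4.17 (adjusted p = 0.0224). The KO call at 24 h was thus made by 1 of the 2 features on its own. Of all 559 features, 1 was called higher in KO and 58 in Het at 24 h, 7 in KO and 21 in Het at 48 h, and 38 in Het at 96 h. The copies are alike before their starts, while their RNAs and the spotted cDNAs were not compared in sequence. Each feature may bind RNA of several copies, which was not tested, so no value is assigned to 1 copy.

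**Figure D1:**
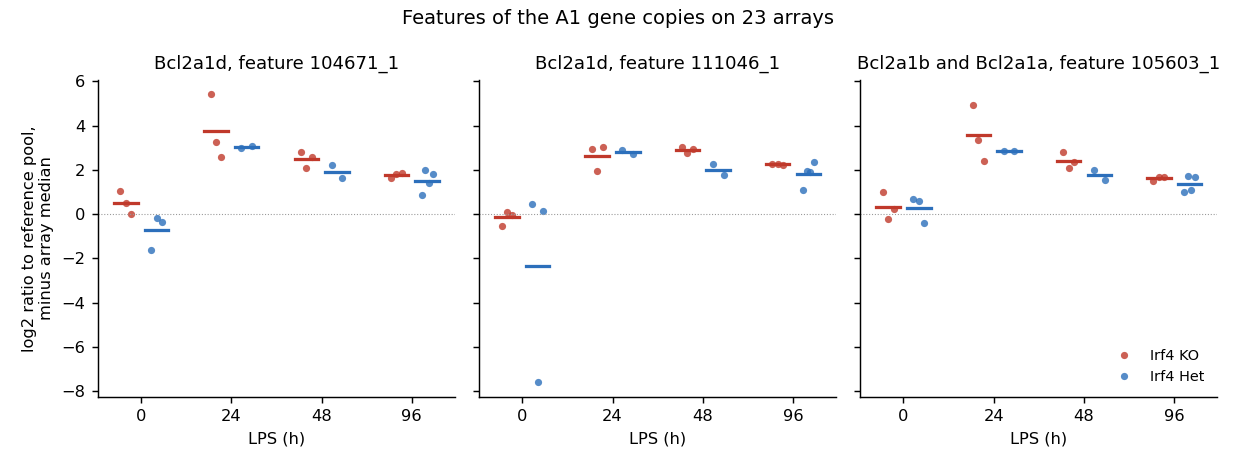
Log2 ratio to the reference pool minus the array median (vertical axis) against hours of LPS (horizontal axis) for the Bcl2a1d features 104671_1 and 111046_1 and for feature 105603_1 of Bcl2a1b and Bcl2a1a. Points are arrays, bars are group means, KO in red and Het in blue; at 24 h every point lies above every 0 h point, and the low Het point at 0 h is the value of -7.61.

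Mcl1 (chr3:95656944-95663179) had its highest levels before LPS. In KO cells its level was 1.48, 0.70 and 0.39 at 0 h, -0.77, 0.22 and -0.09 at 24 h, 0.61, 0.20 and 0.18 at 48 h, and -0.34, -0.42 and -0.27 at 96 h. In Het cells it was 1.71, 1.86 and -0.10 at 0 h, 0.99 and 0.07 at 24 h, 0.34 and -0.33 at 48 h, and -1.03, -0.32, 0.06 and 0.41 at 96 h. Both genotypes had their highest group mean at 0 h and their lowest at 96 h. The Het mean at 0 h was high through replicates 1 and 2, which are of the lowest database range. KO arrays at 96 h lay below all KO arrays at 0 h, in a comparison where 52.6% of all genes had groups that did not overlap. The Het groups overlapped through Het at 0 h replicate 3.

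Mcl1 fell by 1.38 ± 0.46 on the log2 scale in Het cells at 96 h (SE, limma adjusted p = 0.0366), 2.59-fold, where 17.8% of all genes were called lower and the median gene differed by -0.42. At 48 h the Het difference was -1.15 (adjusted p = 0.199). The KO differences were -1.07 at 24 h (adjusted p = 0.378) and -1.20 at 96 h (adjusted p = 0.172), where the median gene differed by -0.60. Both Mcl1 features passed the test on their own in Het at 96 h, 104380_1 at -1.39 (adjusted p = 0.0397) and 107885_1 at -1.36 (adjusted p = 0.039), and they ran together over the 23 arrays (Pearson's r = 0.89, a description). Of all 559 features, 29.7% were called in that comparison, 128 of them lower. Plasma cell markers moved there too: of 7 measured, Ell2, Iglv1, Mzb1 and Xbp1 were called higher, where 7.85% of all genes were. The list had a median of 2.03, with 6 above 0. Sdc1 went the other way, with a Het mean of -0.05 at 0 h and -2.19 at 96 h. The Mzb1 and Ell2 values contain low Het levels at 0 h, down to -8.60 and -4.23. The part of these markers in the Mcl1 value was not tested. The Het call was lost under 10 of 19 alternatives: without Het at 0 h replicate 1 or 2 it was -1.10 and -1.02, without Het at 96 h replicate 1 or 2 it was -1.10 and -1.34, and without the lowest database range it was -0.12. Within the highest range, which holds 4 Het arrays at 96 h and 1 at 0 h, the difference was -0.12, and the KO difference in that range was -0.73.

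Bcl2 (chr1:106538176-106714290), the founding pro-survival gene, has 2 features that disagree, so its mean is hard to read. They ran apart over the 23 arrays (Pearson's r = -0.19, a description) and lay more than 2 log2 units from each other on 3 arrays. Feature 104620_1 read -9.12, -7.67 and -0.53 on the Het arrays at 0 h, where feature 106239_1 read 0.71, 0.77 and -0.74. On Het at 96 h replicate 3 it was 106239_1 that was low, at -5.95, beside -0.35 for 104620_1. On the remaining 20 arrays both features lay between -1.70 and 0.92.

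The mean of both features was -0.07, -1.34 and -0.47 in KO cells at 0 h, 0.72, -0.02 and -0.04 at 24 h, 0.08, 0.04 and -0.05 at 48 h, and -1.04, -1.25 and -0.71 at 96 h. In Het cells it was -4.21, -3.45 and -0.64 at 0 h, 0.72 and -0.16 at 24 h, 0.16 and -0.02 at 48 h, and -1.45, -0.90, -3.15 and -0.67 at 96 h. At 24 and 48 h KO and Het arrays lay close to 0, and at 96 h all 7 arrays lay below every array at 24 and 48 h. Bcl2 was called higher in Het cells at 24 h (3.04 ± 0.80, SE, limma adjusted p = 0.0172) and at 48 h (2.83 ± 0.80, SE, adjusted p = 0.0383). Both calls rest on the 2 low readings of feature 104620_1 at 0 h: with values that low taken as missing the differences were 0.00025 and -0.21, and without the lowest database range they were 0.48 and 0.71. The call at 24 h was also lost without Het at 24 h replicate 1 (2.60, adjusted p = 0.197), and that at 48 h without any one Het array of 0 h or 48 h other than replicate 3 of 0 h (adjusted p of 0.0877 to 0.214).

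In KO cells, where no Bcl2 reading was that low, the difference from 0 h was 0.84 at 24 h (adjusted p = 0.689) and -0.38 at 96 h (adjusted p = 0.772). At 96 h the Het difference of the mean was 1.22 (adjusted p = 0.169), and its features went opposite ways. Feature 104620_1 rose by 5.01 (adjusted p = 0.0103) and feature 106239_1 fell by 2.57 on the log2 scale (adjusted p = 0.0347). With low values missing the Het mean at 96 h was -1.12 relative to 0 h (adjusted p = 0.0353), and no direction of Bcl2 between 0 h and 96 h held under both settings.

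**Figure D2:**
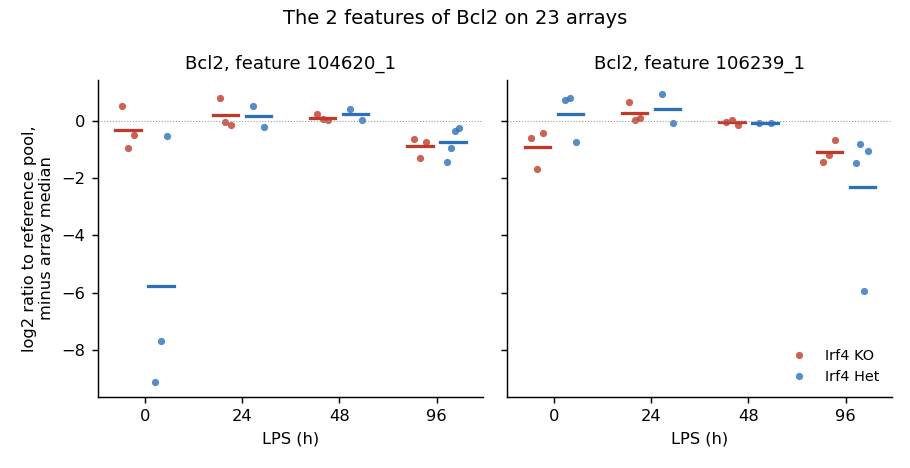
Log2 ratio to the reference pool minus the array median (vertical axis) against hours of LPS (horizontal axis) for the Bcl2 features 104620_1 and 106239_1. Points are arrays and bars are group means, KO in red and Het in blue; Het readings of -9.12 and -7.67 at 0 h appear for 104620_1 alone and the Het reading of -5.95 at 96 h for 106239_1 alone.

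Bid (chr6:120893119-120917062), the BH3-only gene that links death receptors to mitochondria, read lower at 96 h than at 24 and 48 h in both genotypes, a difference that was not tested. In KO cells its level was 0.90, -3.02 and 0.14 at 0 h, -0.66, 1.57 and 1.14 at 24 h, 0.50, 0.50 and 0.60 at 48 h, and -0.84, -0.82 and -0.79 at 96 h. In Het cells it was 1.78, 1.56 and -0.27 at 0 h, 2.19 and 1.56 at 24 h, 1.12 and 1.16 at 48 h, and -0.75, -0.18, -0.79 and -0.31 at 96 h. All 7 arrays at 96 h lay below 0 and all 5 at 48 h above it. The low KO array at 0 h comes from feature 102156_1, which read -6.59 there beside 0.56 for feature 101141_1.

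Bid passed no test as a gene. The Het difference at 96 h was -1.53 (adjusted p = 0.115), the KO difference at 24 h was 1.34 (adjusted p = 0.507), and feature 101141_1 alone fell by 1.65 on the log2 scale in Het at 96 h (adjusted p = 0.0224). The Het difference passed with low values missing (-1.53, adjusted p = 0.0201) and without Het at 0 h replicate 3 (-2.18, adjusted p = 0.0248). Without the lowest database range it was -0.24. The KO difference at 24 h was 0.16 without KO at 0 h replicate 2 and 0.15 with low values missing, and it passed in 2 of 18 alternatives, with array weights (2.29, adjusted p = 0.0121) and with the arrays of the lowest range left out (2.79, adjusted p = 0.0289).

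Bcl2l11 (chr2:128126038-128162547), which encodes the BH3-only protein BIM, was measured by 1 feature and passed no test. In KO cells it read -0.70, 0.90 and -0.33 at 0 h, -0.05, 0.65 and 0.58 at 24 h, 1.46, 1.5 and 0.82 at 48 h, and 0.44, -0.22 and 0.75 at 96 h. In Het cells it read 0.14, 0.43 and -0.40 at 0 h, 0.06 and 0.30 at 24 h, 1.23 and 0.39 at 48 h, and 0.24, 0.25, 0.35 and 0.08 at 96 h. The highest group mean was at 48 h in both genotypes, and groups at 0 h and 48 h overlapped in each. The difference from 0 h at 48 h was 1.30 in KO (limma adjusted p = 0.122) and 0.75 in Het (adjusted p = 0.300). The KO difference passed in 1 of 18 alternatives, with arrays scaled to one spread (1.56, adjusted p = 0.0289).

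**Figure D3:**
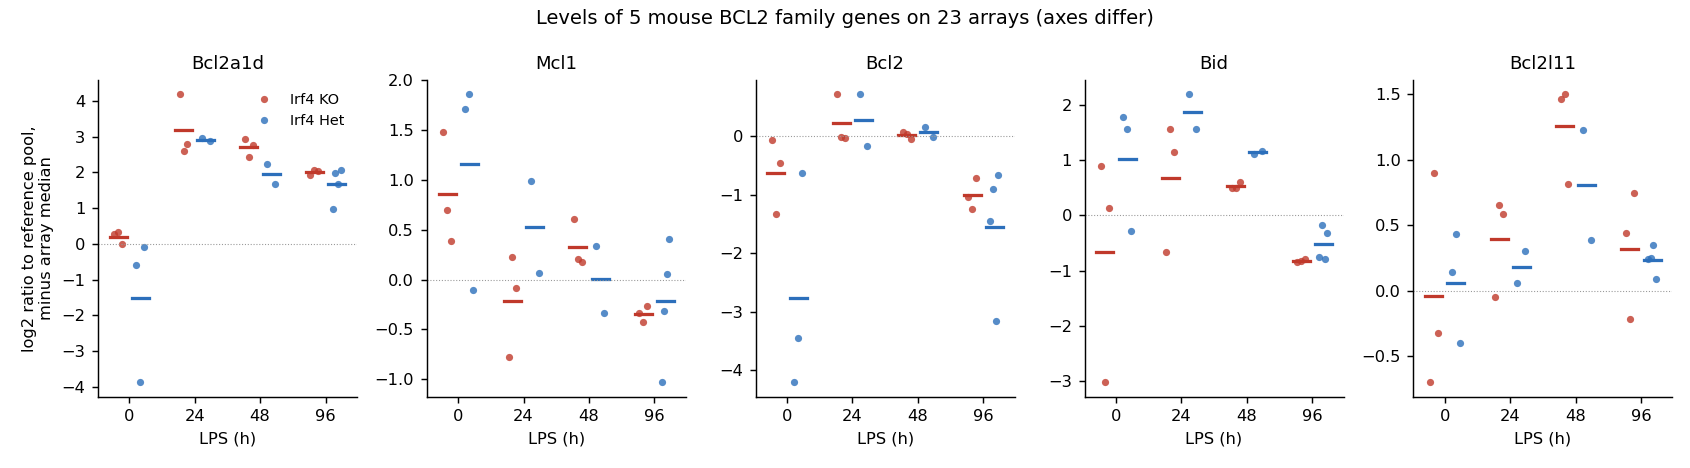
Log2 ratio to the reference pool minus the array median (vertical axes, which differ between genes) against hours of LPS (horizontal axis) for the 5 mouse genes. Points are arrays and bars are group means, KO in red and Het in blue; Bcl2a1d is highest at 24 h, Mcl1 at 0 h and Bcl2l11 at 48 h, and Bid lies below 0 on all 7 arrays at 96 h.

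**Figure D4:**
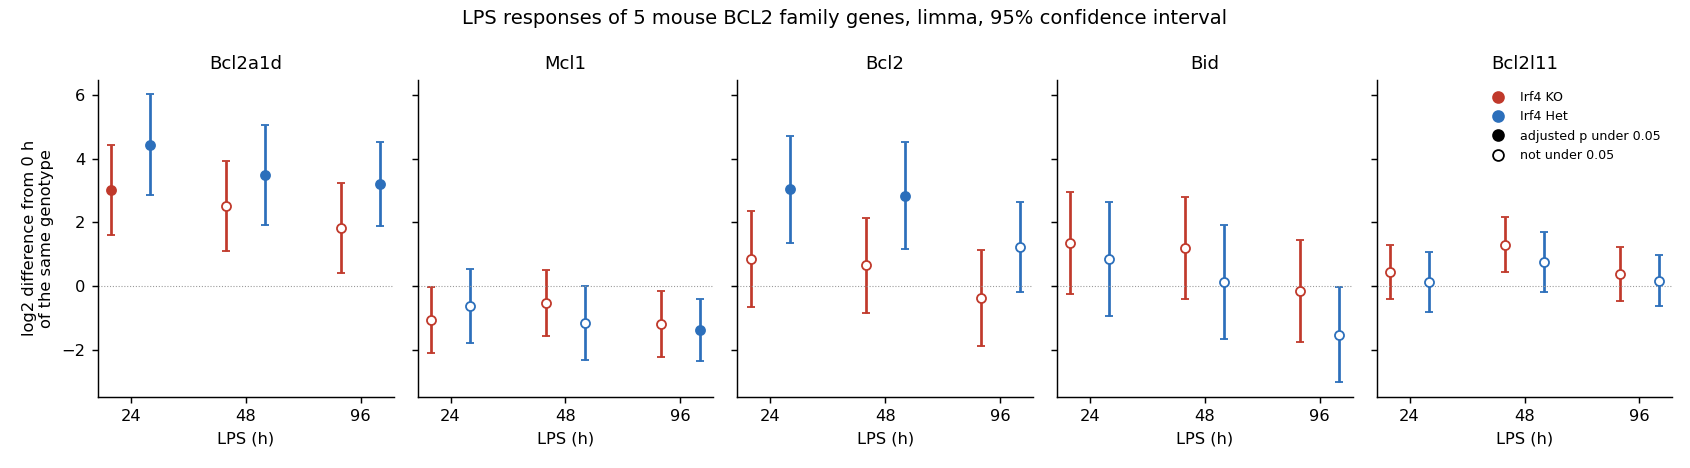
Log2 difference from 0 h of the same genotype (vertical axis) at 24, 48 and 96 h of LPS (horizontal axis), from limma with 95% confidence intervals, KO in red and Het in blue. Filled points passed an adjusted p of 0.05: Bcl2a1d at 24 h in KO and at every time in Het, Bcl2 at 24 and 48 h in Het, and Mcl1 at 96 h in Het.

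Counted over the 5 genes, KO cells had 1 past the threshold at 24 h, 0 at 48 h and 0 at 96 h, against 1.51%, 1.51% (1.21% higher) and 0.906% of all genes. The genes with an unadjusted p under 0.05 were 2 of 5 at each of these times, Bcl2a1d with Mcl1 at 24 and 96 h and with Bcl2l11 at 48 h, where 41, 27 and 81 of the 331 genes had one at 24, 48 and 96 h. Het cells had 2 of 5 past it at 24, 48 and 96 h alike, against 13.3%, 8.46% and 25.7% of all genes. These Het counts fell to 1 at 24 and 48 h with the low readings missing, where Bcl2a1d was left, and came to 4 at 96 h. The genotypes' responses were also set against each other, and by limma 0 of 5 genes (0% of 331) passed in any of the 3 tests of that difference, with 0 of 5 at an unadjusted p under 0.05 against 26, 28 and 42 of all genes. Bcl2 came nearest, with a KO response minus Het response of -2.20 at 24 h (limma adjusted p = 0.544) and -2.19 at 48 h (limma adjusted p = 0.592), which contain the low Het readings at 0 h. They were 0.84 and 0.85 with low values missing, and -3.26 (adjusted p = 0.0353) and -3.25 (adjusted p = 0.0240) without Het at 0 h replicate 3. For Bcl2a1d the response in KO minus that in Het had 95% confidence intervals of -3.56 to 0.69 at 24 h and -3.31 to 0.57 at 96 h, so neither a like nor an unlike response was shown.

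KO and Het cells were compared at each time, to ask which survival genes depend on Irf4. By limma 0 of 5 genes passed at 0 h, 24 h, 48 h or 96 h, where 1.81%, 0%, 0% and 2.72% of all genes did. Over all genes, 57, 31, 9 and 30 had an unadjusted p under 0.05 at these times. Unadjusted p-values under 0.05 belonged to 3 of 5 genes at 0 h and to 0 of 5 at the later times. At 0 h these were Bcl2 (2.14, adjusted p = 0.149), Bcl2a1d (1.71, adjusted p = 0.189) and Bid (-1.68, adjusted p = 0.249). Each contains very low readings named above: -9.12 and -7.67 in Het for Bcl2, -7.61 in Het for Bcl2a1d and -6.59 in KO for Bid. With such values missing the differences were -0.90, 0.47 and -0.49, with adjusted p of 0.500, 0.671 and 0.727. Without Het at 0 h replicate 3, Bcl2 (3.21) and Bcl2a1d (2.43) passed.

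At 96 h, the time with the most arrays, no difference between the genotypes reached 1 log2 unit for any of the 5 genes. KO minus Het was 0.34 for Bcl2a1d (95% confidence interval -0.99 to 1.66), -0.12 for Mcl1 (-1.10 to 0.85), 0.54 for Bcl2 (-0.86 to 1.95), 0.09 for Bcl2l11 (-0.71 to 0.89) and -0.31 for Bid (-1.81 to 1.19), each with an adjusted p of 0.993. The intervals reach from -0.71 to 0.89 for Bcl2l11, the narrowest, and are wider for the other genes, so these values do not show that the genotypes were alike. Bcl2, at 0.54 in all, differed by 0.01 without Het at 96 h replicate 3. The mean of the myeloid markers was 1.12 to 1.38 in KO and -0.16 to 0.80 in Het at this time. That of the plasma cell markers was -0.62 to -0.51 in KO and 1.30 to 1.49 in Het, and 2 of 7 (Iglv1 and Jchain) were called lower in KO. The part of these markers in the values was not tested.

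Groups that did not overlap between genotypes were seen for Bid and Bcl2a1d. Bid read 0.50, 0.50 and 0.60 in KO against 1.12 and 1.16 in Het at 48 h, a difference of -0.61 (adjusted p = 0.997), and at 96 h the highest KO array (-0.7935) and the lowest Het array (-0.793) nearly met. At 24 h the Bid difference was -1.20 (adjusted p = 0.452), and the groups overlapped. Bcl2a1d was higher on each KO array than on each Het array at 0 h and at 48 h, where the difference was 0.74 (adjusted p = 0.997). Groups did not overlap for 11.2% of all genes before LPS and for 20.8%, 30.5% and 18.7% at the 3 LPS times, so such genes are common in the background. The 2 Het arrays at 48 h limit that comparison, and so do the conflicting labels of KO replicates 1 and 3 at 48 h. With these arrays taken as Het, KO replicate 2 was left alone. The Bcl2a1d difference at 48 h was then 0.019, with overlap, and that of Bid was -0.35.

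The 8 mouse groups were ordered by mean level, and overlap of arrays was checked between neighbours in that order alone. For Bcl2a1d Het at 0 h (-1.52) and KO at 0 h (0.19) were lowest, and the LPS groups ran from 1.67 in Het at 96 h to 3.20 in KO at 24 h. Neighbours did not overlap below Het at 96 h and between KO at 96 h (2.01) and KO at 48 h (2.71). For Mcl1, from -0.34 in KO at 96 h to 1.16 in Het at 0 h, and for Bcl2l11, from -0.04 in KO at 0 h to 1.26 in KO at 48 h, every pair of neighbours overlapped. For Bcl2 the group means at 0 and 96 h (-2.76 to -0.62) lay below those at 24 and 48 h (0.02 to 0.28). The neighbours KO at 0 h and KO at 48 h did not overlap. The arrays of the 0 h and 24 h groups did, since KO at 0 h replicate 1 (-0.07) lay above Het at 24 h replicate 2 (-0.16). For Bid the neighbours Het at 96 h (-0.51) and KO at 48 h (0.54) did not overlap, nor did Het at 48 h (1.14) and Het at 24 h (1.88). Groups further apart in the order did overlap. KO at 0 h replicate 1 read 0.90, above every KO array at 48 h. Het at 0 h replicate 1 read 1.78, between the Het arrays at 24 h (1.56 and 2.19).

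The genes with the most similar course over the 23 arrays were named by the highest Pearson's r among the 331 genes, which all share the arrays and their spread. For Bcl2a1d they were Mthfd2, a mitochondrial folate enzyme (0.85), the growth factor gene Csf1 (0.85) and Gtse1 (0.81). For Mcl1 they were Psap, the precursor of the saposins (0.92), the feature name 9430029L20Rik (0.91) and Add1, an adducin (0.91). For Bcl2 they were Gbe1 (0.86), Ctps (0.83) and Nars (0.79), and for Bid Htra2 (0.81), Foxp1 (0.80) and Whrn (0.80). The Bcl2 course is the mean of 2 features that ran apart (Pearson's r = -0.19). It contains very low readings named above, as do the courses of Bcl2a1d and Bid, and their part in these correlations was not tested. Bcl2l11 had no gene above 0.66, that of Cybb, a subunit of the phagocyte oxidase.

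Few other genes of the pathway were among the named mouse genes. Of the effectors Bax, Bak1 and Bok 0 were measured, of 13 genes downstream of the mitochondria 2, and of 20 upstream regulators 4. Cycs, cytochrome c, which leaves mitochondria in apoptosis, rose in Het cells at 24 h by 1.98 ± 0.47 (SE, limma adjusted p = 0.0121), where 10.6% of all genes were called higher. It lay 0.90 above 0 h in KO cells (adjusted p = 0.378). Htra2, a mitochondrial protease, fell by 1.75 on the log2 scale in Het cells at 96 h (adjusted p = 0.0104) and lay at -0.86 in KO cells (adjusted p = 0.259). Of the regulators, Myc fell by 2.27 on the log2 scale (adjusted p = 0.0177) and Atf4, a stress factor, by 1.11 (adjusted p = 0.0374) in Het at 96 h, where Mcl1 fell too. At that time 17.8% of all genes were called lower in Het, and the median gene differed by -0.42. How the calls of Cycs, Htra2, Myc and Atf4 depend on single arrays was not tested. In KO at 96 h Myc lay at -2.09 (adjusted p = 0.113) and Atf4 at -1.16 (adjusted p = 0.136). Pim1 and Akt1, kinases of survival signalling, passed in no comparison.

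In OCI-Ly7 the question was whether IRF4 changes the survival genes of a lymphoma line, and by limma 0 of 5 passed, against 0.109% of 4604 genes (0.0434% higher and 0.0652% lower). Of the 5 genes 1, MCL1, had an unadjusted p under 0.05, as had 1099 of all genes. MCL1 had the mean furthest from 0 of the 5 genes, in whichever direction the ratio runs. Its log2 ratio was 0.41 at day 2, 1.54 and 0.55 at day 3 and 0.67 at day 5. All 4 arrays and all 24 readings of its 6 features lay above 0, with feature means from 0.57 to 1.13. The mean was 0.79 ± 0.30 (SE, n = 4, limma adjusted p = 0.192), 1.73-fold, with a 95% confidence interval of 0.05 to 1.53, and the median gene lay at -0.14. Over 11 alternatives it ran from 0.54 to 0.92 and passed in 0.

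PMAIP1, the BH3-only gene of NOXA, which binds MCL-1, lay above 0 on all 4 arrays too. It read 0.59 at day 2, 0.59 and 0.53 at day 3 and 0.24 at day 5, a mean of 0.49 ± 0.25 (SE, adjusted p = 0.274). Its 4 features had means from 0.10 to 1.01, and 2 of them had 1 reading each below 0. BCL2L1 read -0.01 at day 2, 0.66 and -0.09 at day 3 and -0.41 at day 5, with a mean of 0.04 ± 0.29 (SE, adjusted p = 0.941). Arrays of both signs are thus present for BCL2L1 and none below 0 for PMAIP1.

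BCL2 and BCL2A1 had features that disagreed. The BCL2 mean was 0.74 at day 2, 0.09 and 0.57 at day 3 and -0.24 at day 5, averaging 0.29 ± 0.29 (SE, adjusted p = 0.533). Of its 7 features, 19332_1 read 3.75, 3.47, 4.10 and 3.83 over these arrays, a mean of 3.79 ± 0.28 (SE, adjusted p = 0.0505 when fitted feature by feature), while the means of the other 6 ran from -1.43 to 0.60. The median of the 7 features gave -0.10. BCL2A1 read -0.21 at day 2, -1.03 and 0.34 at day 3 and 0.09 at day 5, a mean of -0.20 ± 0.32 (SE, adjusted p = 0.696). At day 5 its feature 24637_1 read 5.90 and its feature 28638_1 read -5.33, so that the mean near 0 hides readings of opposite sign.

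**Figure D5:**
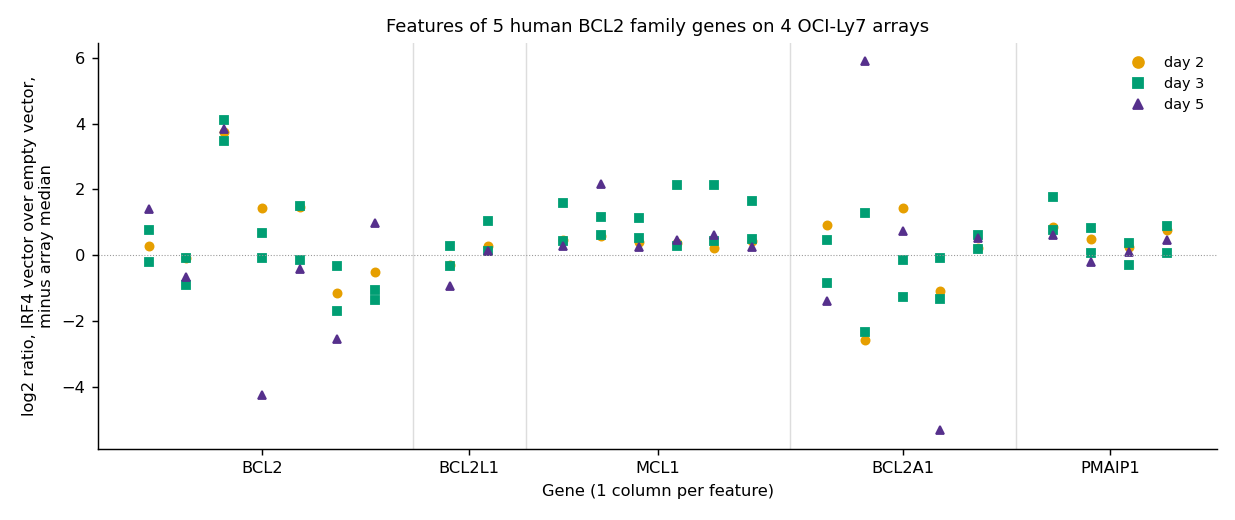
Log2 ratio of IRF4 vector over empty vector minus the array median (vertical axis) for each feature of the 5 human genes (1 column per feature), with a point per array at day 2 (circle), day 3 (squares) and day 5 (triangle). All MCL1 points lie above 0, 1 BCL2 feature lies between 3.47 and 4.10 on every array, and BCL2A1 points at day 5 reach 5.90 and -5.33.

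More of the pathway was among the named human genes, and 0 genes of it passed. Measured were 5 of 6 pro-survival genes (median 0.04), 3 of 3 effectors (median -0.07), 6 of 8 BH3-only genes (median 0.19), 7 of 11 related genes (median -0.14), 6 of 13 downstream genes (median 0.21) and 17 of 20 upstream regulators (median -0.49, 8 above 0). Beside the 5 genes described, no member of these lists was called in either direction. Days were not compared with each other, since days 2 and 5 have 1 array each.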

How the data were processed

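Per the labels, mouse RNA was labelled with Cy5 and a reference pool with Cy3, and IRF4-vector RNA with Cy5 and empty-vector RNA with Cy3. The authors deposited log2 ratios per feature. Their base and direction are not stated. Base 2 was assumed, so every fold rests on it, and the direction was assumed from the dyes. Scanner settings, background correction and normalization were not stated in any source read. The median of all 12292 mouse or 15246 human features was subtracted per array. Gene values are means of features with 1 symbol. The 8 mouse groups were fitted together with limma 3.58.1 in R 4.3.3 (2-sided, Benjamini-Hochberg over 331 or 4604 genes), and human ratios were tested against 0, without dye swaps. The fits were tested on simulated data. Promoters came from RefSeq GRCm38.p6, matched by symbol for 5 of 5 mouse genes. Of 10 same-numbered KO and Het pairs, 5 had correlations of deviations over 0.1 (-0.17 to 0.51), so numbers were not taken as pairs. The genes and lists were chosen with earlier results of these data known. Like genes were those of highest correlation, and pathway genes came from fixed lists. Single-channel signals were not analysed here, so the number of arrays limits the precision.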

Additional observations from a re-analysis of the deposited data

Results flagged for a closer look

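In sets of 4 arrays, a reading far from the other 3 was sought by Dixon's test. Among 44 sets of readings of the genes and features described, 5 were found. The 4 OCI-Ly7 arrays were taken as 1 set though their days differ, and gene means were tested beside their own features. The rate of about 1 in 20 that chance gives among separate sets of repeats is thus no fair yardstick here. Bcl2 feature 106239_1 read -5.95 on Het at 96 h replicate 3, against -1.47 to -0.83 on the other Het arrays at 96 h. The other 4 were all on the array of day 3 replicate 1 of OCI-Ly7. On it BCL2L1 feature 24267_1 read 1.03 (0.13 to 0.28 on the others), and MCL1 features read 1.58 for 16466_1 (0.29 to 0.48), 2.12 for 30120_1 (0.29 to 0.46) and 1.65 for 36123_1 (0.26 to 0.48). Day 3 replicate 1 was also the array on which the mean of the IRF4 features lay above 0, at 0.67. Without it the MCL1 mean was 0.54, and it lay above 0 on the 3 others.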

How the results depend on the processing

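The 37 differences of single genes given above were recomputed under 641 alternative values in all, of which 549 kept direction and side of the threshold, 38 lost the call, 27 gained one and 27 changed sign. The counts of the 5 mouse genes past the threshold moved as follows; where no cause is named, it was not tested. Low values taken as missing and features fitted singly were chosen after seeing the data. In KO at 24 h (1 gene) it was 2 with centring over the named features, without the lowest database range or with array weights, and 0 without the arrays of conflicting labels or with only the compared groups fitted. In KO at 48 h (0) it was 1 after quantile normalization, without the lowest range, with array weights, with only the compared groups or with low values missing, and 2 with arrays scaled to one spread. In KO at 96 h (0) it was 1 after quantile normalization, scaling, without the lowest range or with low values missing, and 2 with array weights or only the compared groups. In Het it was 1 in place of 2 at 24, 48 and 96 h after quantile normalization, scaling or without the lowest range, 3 at 24 h with centring over the named features, 1 at 24 h with array weights, 1 at 24 and 48 h with low values missing, 1 at 48 and 96 h without the arrays of conflicting labels or with the range as a factor, 0 at each time with only the compared groups fitted (fewer arrays), and 4 at 96 h with low values missing or with features fitted singly. Leaving out 1 array at a time gave 0 to 1 in KO at 24 h, 1 to 2 in Het at 24 h, 0 to 3 at 48 h and 1 to 4 at 96 h. For KO against Het it gave 0 to 2 at 0 h, and 0 to 1 for each difference of responses, always through Het at 0 h replicate 3. Human counts stayed at 0 in 12 of 12 settings.

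Signs turned for Bcl2 in Het at 48 h with low values missing (-0.21), in Het at 96 h after quantile normalization (-0.018), without the lowest range (-0.91) or with low values missing (-1.12), in KO at 96 h when centring used the named features (0.24), and for KO minus Het at 0 h without the lowest range (-0.27) or with low values missing (-0.90) and at 96 h with low values missing (-0.16). The KO response minus the Het response of Bcl2 turned to 0.40 at 24 h and 0.22 at 48 h without the lowest range, and to 0.84 and 0.85 with low values missing. They turned for Mcl1 in Het at 48 h without the lowest range (0.10), and for KO minus Het at 96 h with centring over the named features (0.026) or the replicate block (0.086; single arrays left out, -0.39 to 0.086). KO minus Het for Bcl2l11 at 96 h was -0.0019 with array weights and -0.12 to 0.36 without single arrays. Human signs turned for BCL2 by the median of features (-0.10), for BCL2A1 with array weights (0.061), low values missing (0.13) or single arrays left out (-0.39 to 0.072), and for BCL2L1 without centring (-0.16), after quantile normalization (-0.15), with the day 3 arrays averaged (-0.044), array weights (-0.043) or single arrays left out (-0.17 to 0.19).

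Over all genes, alternatives gave 1 to 37 calls in place of 5 in KO at 24 h, 0 to 24 in place of 5 at 48 h, 1 to 102 in place of 3 at 96 h, 0 to 99 in place of 44 in Het at 24 h, 0 to 79 in place of 28 at 48 h, 2 to 172 in place of 85 at 96 h, 0 to 57 in place of 6 for KO against Het at 0 h, 0 to 21 and 0 to 1 in place of 0 at 24 and 48 h, 6 to 42 in place of 9 at 96 h, 0 to 10, 0 to 15 and 0 to 30 in place of 0 for the differences of responses and 0 to 262 in place of 5 on the human arrays. The replicate block, with numbers that do not pair the samples, changed no count of the 5 genes.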
